A study of Mus musculus with 50 samples.

Results

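The 10 genes described here encode the classical MHC class II chains of the mouse strain used (H2-Aa, H2-Ab1 and H2-Eb1) and the proteins that induce, guard, load and cut in the class II pathway (Cd74, Ciita, H2-DMa, H2-DMb1, H2-DMb2, H2-Oa and Ctss). They were chosen by name from the table of gene counts. All 10 were found among its 37469 gene identifiers, each as 1 row, and all 10 were among the 19327 genes that passed the filter on low counts. Their RNA was measured by bulk sequencing of whole tumors, so that a smaller number of expressing cells and less RNA per cell cannot be told apart in any value below.

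The tumors were p53/MCA sarcomas of mice on a 129/SvJae background. Primary tumors arose in Trp53 fl/fl mice, in which Trp53 is deleted in the gastrocnemius muscle by a local adenovirus carrying Cre and 300 µg of the carcinogen 3-methylcholanthrene (MCA) is injected at 6 to 10 weeks of age. Transplant tumors grew from 50000 cells of a single line, 402230, made from 1 untreated primary sarcoma and injected into the same muscle of syngeneic mice, so that all transplants share the mutations of 1 tumor. Each model received 0 or 20 Gy of focal radiation together with 200 µg of an antibody that blocks PD-1 (anti-PD-1) or of its isotype control, and tumors were harvested 3 days later. Each of these 4 treatments had 8 primary and 4 transplant libraries. Tumors given 0 Gy and isotype antibody are called untreated. Each of the 48 tumor libraries carries a number of its own in the labels, and p-values measure the spread between these libraries. A further 2 libraries came from 402230 itself, 1 labelled as the parental tumor and 1 as the cell line.

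MHC class II molecules are pairs of an alpha and a beta chain that show peptides from taken-up proteins to CD4+ T cells. They are made all the time by dendritic cells, B cells and many macrophages, and interferon gamma induces them in other cells through the transactivator CIITA, which binds no DNA itself but joins the proteins RFX, CREB and NF-Y on the promoters of the pathway. The invariant chain (Cd74) fills the groove of new molecules, cathepsin S (Ctss) cuts it down to a small fragment, the DM pair (H2-DMa with H2-DMb1 or H2-DMb2) exchanges that fragment for peptide, and the DO pair, of which H2-Oa is the alpha chain, holds DM back.

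Total counts ran from 31810461 to 54008259 per tumor library. Levels are given as CPM, counts scaled to a library size of 1000000 with TMM factors over the 48 tumors. Trp53, the deleted gene, ran from 4.34 to 5.92 on the log2 CPM scale over the 48 tumors, and bulk libraries do not tell tumor cells from host cells as the source of its RNA. The markers of the 2 libraries of 402230 went against their labels. The library labelled parental tumor held 5 counts of the leukocyte gene Ptprc, 3 of the macrophage gene C1qa and 0 of the macrophage gene Adgre1, whereas the library labelled cell line held 3779, 11698 and 2789. The 2 libraries entered none of the main comparisons, and each is called below by its label. The library labelled parental tumor was added to the untreated primary tumors only in an alternative fit. The H2-Ea pseudogene, the alpha chain partner of H2-Eb1 that this strain does not make, had 4 counts in all 48 tumors together and 0 counts in 44 of them.

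Short motifs known from class II promoters were looked for in the sequences before the transcription starts. Promoters of 7 of the 10 genes were present in the RefSeq table (assembly GRCm38.p6, the mm10 assembly of the counts). The 200 bases before the start are given here for 6 of them, with letters in capitals where they match one of 4 short motifs: TGATTGG (the Y box bound by NF-Y), CTNGNAAC (a core of the X box bound by RFX), TGACGTCA (the CRE element bound by CREB) and a core of the interferon-stimulated response element. The first set, H2-Aa, H2-Eb1 and H2-DMb1, shows the X box and Y box together.
H2-Aa, chr17:34287824-34288023, minus strand: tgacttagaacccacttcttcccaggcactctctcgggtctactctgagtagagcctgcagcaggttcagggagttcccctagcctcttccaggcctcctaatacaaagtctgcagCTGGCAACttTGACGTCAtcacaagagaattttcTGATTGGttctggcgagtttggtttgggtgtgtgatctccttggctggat
H2-Eb1, chr17:34305667-34305866, plus strand: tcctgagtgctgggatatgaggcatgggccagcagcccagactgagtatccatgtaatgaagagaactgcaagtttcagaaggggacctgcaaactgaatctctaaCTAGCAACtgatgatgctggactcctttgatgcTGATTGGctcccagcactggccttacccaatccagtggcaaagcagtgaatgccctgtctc
H2-DMb1, chr17:34152991-34153190, plus strand: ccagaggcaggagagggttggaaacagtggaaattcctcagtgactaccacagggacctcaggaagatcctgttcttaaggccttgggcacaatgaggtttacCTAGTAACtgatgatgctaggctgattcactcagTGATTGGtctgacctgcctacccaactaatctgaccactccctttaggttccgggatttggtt
In these 3 the X box core stood upstream of the Y box on the same strand with 25 to 26 bases between them (26 in H2-Aa and H2-DMb1, 25 in H2-Eb1). In H2-Aa the CRE element lay directly after the X box. The second set, H2-DMb2 and H2-Oa, has the Y box in the searched letters but not the X box core, and Ctss has only the interferon motif.
H2-DMb2, chr17:34145049-34145248, plus strand: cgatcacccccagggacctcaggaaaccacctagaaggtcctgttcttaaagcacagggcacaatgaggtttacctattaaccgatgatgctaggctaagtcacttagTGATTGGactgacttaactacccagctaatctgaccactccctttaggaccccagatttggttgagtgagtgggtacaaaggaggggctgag
H2-Oa, chr17:34092179-34092378, plus strand: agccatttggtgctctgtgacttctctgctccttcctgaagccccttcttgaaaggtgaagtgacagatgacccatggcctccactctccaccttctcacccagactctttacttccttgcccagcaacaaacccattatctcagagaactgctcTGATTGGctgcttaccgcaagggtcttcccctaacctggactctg
Ctss, chr3:95526586-95526785, plus strand: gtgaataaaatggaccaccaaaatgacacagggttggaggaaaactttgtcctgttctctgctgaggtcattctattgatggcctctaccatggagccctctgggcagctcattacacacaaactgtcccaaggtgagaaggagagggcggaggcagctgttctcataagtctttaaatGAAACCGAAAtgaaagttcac
Both strands of 300 bases (250 before and 50 after the start) were searched in all 32851 promoters of the table. The Y box letters were in 7.82% of them, the X box letters in 13.2%, the CRE letters in 1.79% and the interferon letters in 3.44%. Only 0.0852% held the X box letters followed by the Y box letters at 10 to 40 bases, 28 promoters in all. H2-DMa, whose upstream windows were searched at 2 annotated starts, held none of the 4 motifs, which says only that these letters are not in those windows. H2-DMb1 and H2-DMb2 are recent copies of each other: 94.6% of the aligned bases of their longest transcripts and 81.9% of those of their upstream windows were identical. Of the stretches of 150 bases in H2-DMb1 transcripts, 4.71% also occurred in H2-DMb2, and of those of 50 bases 22.6%, so that some reads of the pair cannot be placed and their ratio carries that uncertainty.

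Levels were compared between genes per kilobase of exon, with all annotated exons of a gene merged. Cd74 was the highest, with a median of 717 CPM per kilobase over the 48 tumors, followed by Ctss (484), H2-Eb1 (420.1), H2-Ab1 (329.6) and H2-Aa (230.2). The loading genes were lower, with 49.7 for H2-DMb1 and 23.5 for H2-DMa, and Ciita (7.32), H2-DMb2 (3.52) and H2-Oa (1.07) came last. Cd74 lay above Ctss in 34 of the 48 libraries and Ctss above H2-Eb1 in 30, so the order of these 3 changed from tumor to tumor. From H2-Eb1 down to Ciita each gene lay above the next in all 48 libraries, Ciita lay above H2-DMb2 in 41, and H2-DMb2 above H2-Oa in 48. The order of H2-Eb1, H2-Ab1 and H2-Aa rests on their annotated exon lengths (1944, 2568 and 3798 bases). Their median counts were nearly equal (36640.5, 37740 and 37080).

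**Figure D1:**
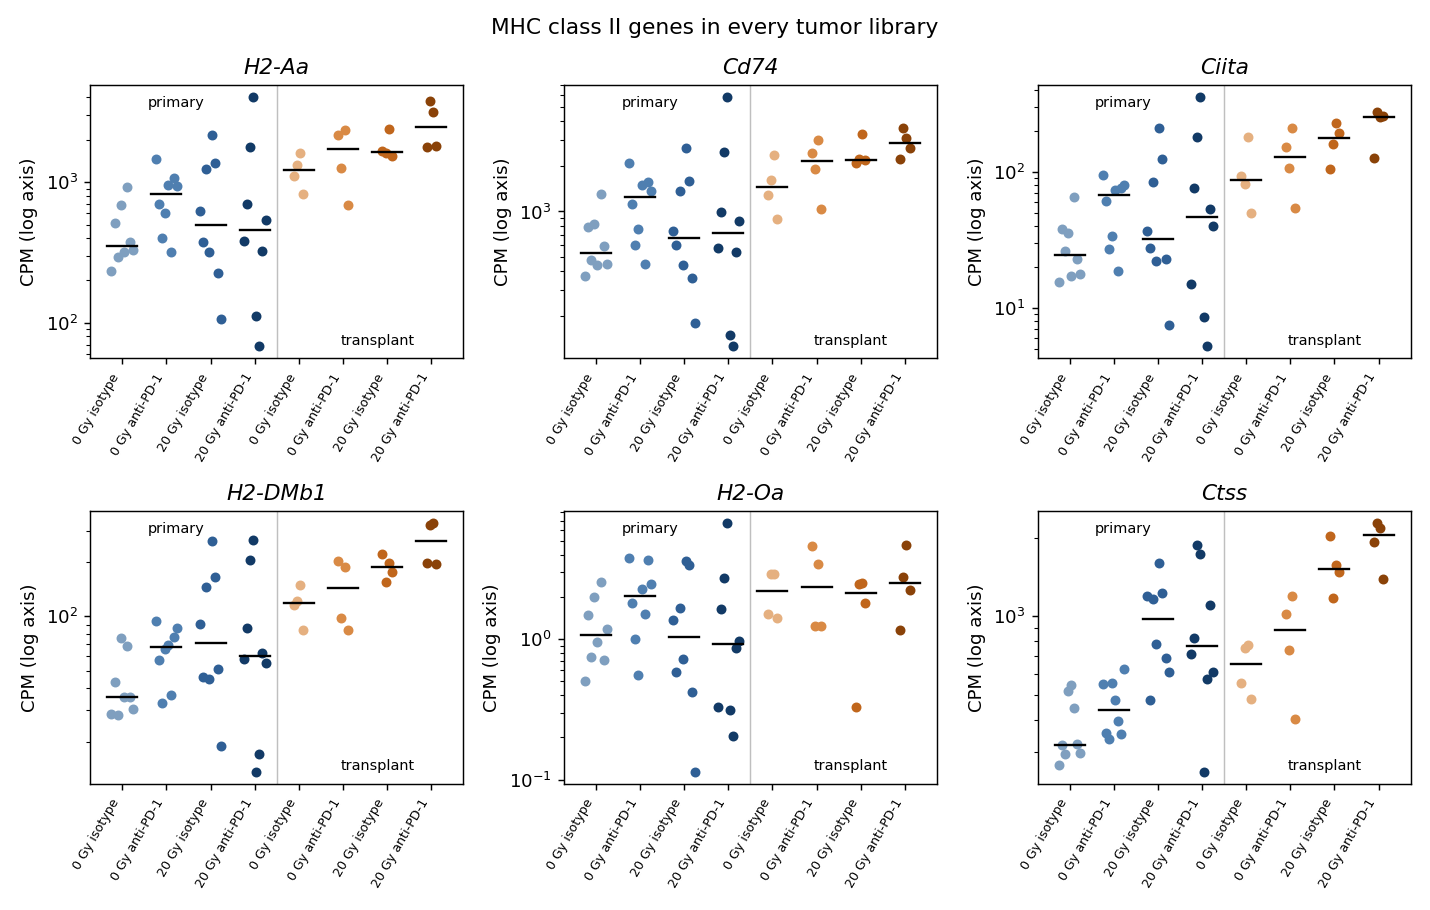
CPM on a log axis of 6 class II genes in each of the 48 tumor libraries, with primary tumors to the left and transplants to the right of the grey line. Points are libraries and bars are group medians. The irradiated primary tumors spread from 68.3 to 4008 CPM for H2-Aa, whereas all 16 transplants lay between 692 and 3756 CPM.

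Transplant tumors had more class II RNA than primary tumors when the 4 treatments were averaged. All transplants grew from a single line, so a difference between the models cannot be told from a trait of that line. On the transplant side the p-values measure the spread between its grafts, not between lines, and transplants of other lines were not tested. The same limit holds for every comparison of the models below. Of the 10 genes, 8 were higher and 0 lower in transplants at an adjusted p under 0.05 (edgeR's quasi-likelihood test with Benjamini-Hochberg adjustment over all genes tested), where 15.7% of all tested genes were higher. The median log2 difference over the 10 genes was 1.16, beside -0.00 over all tested genes. The count stayed between 8 and 9 in all alternatives run, including when each of the 48 libraries was left out in turn.

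Ciita, the switch of the pathway, differed most, by a log2 fold change of 1.40 (SE 0.34, adjusted p = 0.0011 by edgeR). The 3 classical chains differed by nearly equal amounts, H2-Ab1 by 1.32 (SE 0.31), H2-Eb1 by 1.25 (SE 0.32) and H2-Aa by 1.24 (SE 0.32) on the log2 scale. H2-DMb1 (1.23), Cd74 (1.10), H2-DMa (1.02) and Ctss (0.84) were also higher. H2-DMb2 (log2 difference 0.54, SE 0.25, adjusted p = 0.088 by edgeR) and H2-Oa (0.50, SE 0.34, adjusted p = 0.27) did not pass. The differences between genes in the size of this change were not tested in that model.

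**Figure D2:**
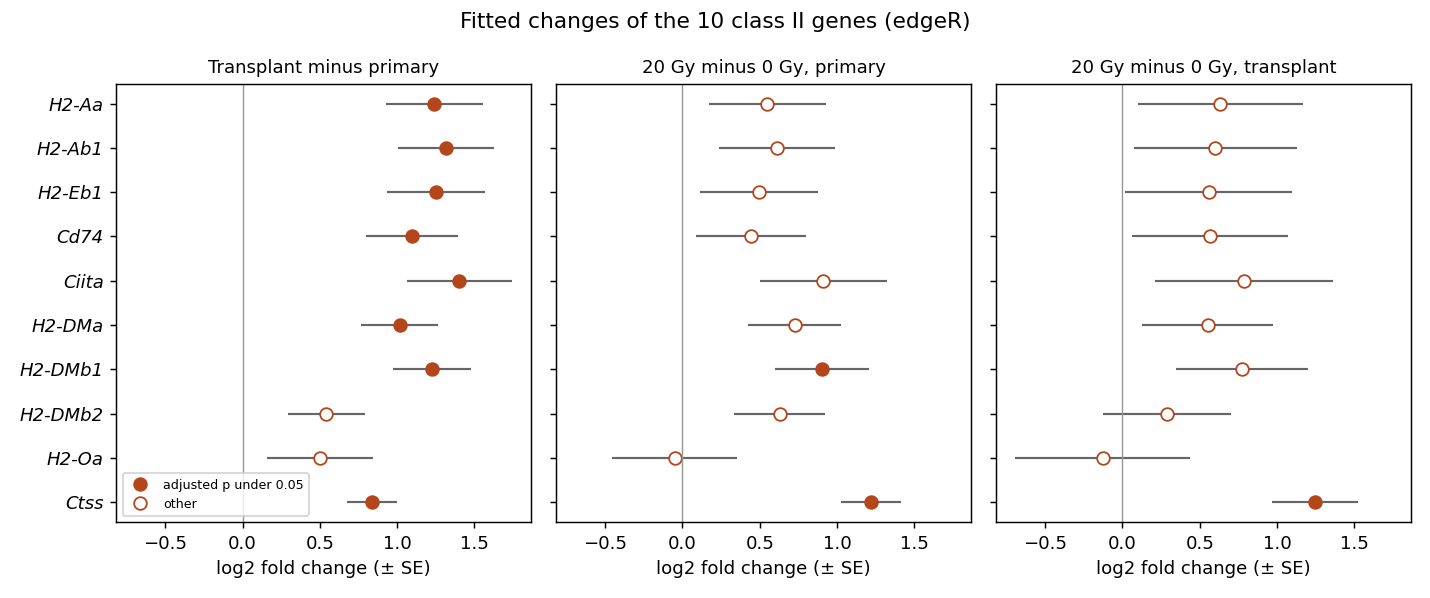
Fitted log2 fold changes of the 10 genes with their standard errors (edgeR, 48 tumors): transplants against primary tumors averaged over 4 treatments, and 20 Gy against 0 Gy averaged over antibodies in each model. Filled points passed an adjusted p of 0.05: 8 genes in the first panel, H2-DMb1 and Ctss in the second, and Ctss alone in the third.

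In untreated tumors alone the same direction was seen with few libraries. H2-Aa was at 829.5, 1100.1, 1321 and 1609 CPM in the 4 transplants, and ran from 234 through a median of 354 to 919 CPM in the 8 primary tumors. Only the lowest transplant lay within the range of the primary tumors. Ciita was at 49.998, 81.9, 94.6 and 180.3 CPM in transplants against 15.5, 24.6 and 65.6 CPM (lowest, median and highest) in primary tumors, again with 1 transplant inside the primary range. H2-DMb1 (83.6, 115.81, 122.11 and 149 CPM against 28.2, 35.6 and 76.2) and H2-Ab1 did not overlap at all, 2 of the 10 genes, where this held for 2.87% of all tested genes.

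None of these differences passed the test in untreated tumors in the fit over all 48 libraries: 0 of 10 genes were called, where 3.88% of all tested genes were higher (edgeR). At an unadjusted p under 0.05 there were 8, where 25.3% of all genes passed, DESeq2 called 1 and limma voom 0. Without library 4 or library 6 of the untreated primary tumors 1 gene was called, H2-DMb1 (adjusted p = 0.036 and 0.048 by edgeR), and the share of all genes in those fits is not given here. The log2 differences were of the size seen over all treatments, from 0.77 for Ctss to 1.76 for Ciita (SE 0.68). When the fit held only the 12 untreated libraries, so that the spread of irradiated primary tumors did not enter it, 8 genes were called, where 3.98% of genes were higher. H2-Ab1 then had a log2 difference of 1.54 (SE 0.33, adjusted p = 0.012 by edgeR) in place of 1.54 (SE 0.62, adjusted p = 0.10).

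Under the other treatments the fitted differences were also positive for most genes. With anti-PD-1 alone, 0 of 10 genes were called (3.39% of all genes were higher, and 2 of the 10 passed at an unadjusted p under 0.05 beside 21.3% of all genes, DESeq2 0, limma voom 0), with a median log2 difference of 0.96 over the 10. Without library 4 of the transplants with anti-PD-1 Ctss was called (adjusted p = 0.045 by edgeR), and the share of all genes in that fit is not given here. With radiation alone, 0 were called (2.47% of all genes were higher, and 3 of the 10 passed at an unadjusted p under 0.05 beside 18.6% of all genes, DESeq2 0, limma voom 0), with a median of 1.01 and H2-DMb2 at -0.01. With radiation and anti-PD-1 only Ctss was called (log2 difference 1.01, SE 0.32, adjusted p = 0.048 by edgeR), where 3.04% of all genes were higher. No gene of the 10 was without overlap between the models under these 3 treatments, as 2.68%, 3.24% and 1.01% of all genes were with anti-PD-1, radiation and both. With both treatments the count was 7 by limma voom (5.3% of genes higher), and 8 without library 4 of the primary tumors with radiation and anti-PD-1 (5.53% of genes higher), which had the highest H2-Aa of all tumors at 4008 CPM. Without library 3 it was 2, Ctss and H2-DMb1, and the share of all genes in that fit is not given here. The call of Ctss was lost without any 1 of the primary libraries 1, 2, 5, 6, 7 and 8 or the transplant libraries 1, 2 and 3 of this comparison.

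Markers of other cells were compared between the models as well. The summed level of 9 macrophage markers ran from 1724 to 2576 CPM in untreated transplants and from 1707 to 3279 CPM in untreated primary tumors, and 1 of the 9 (Fcgr1) was higher in transplants over all treatments. With radiation and anti-PD-1 the sum had a median of 4615 CPM in transplants and 2860.3 CPM in primary tumors, and 8 of the 9 had positive log2 differences with a median of 0.44, of which 0 passed (edgeR). Of 3 markers of all leukocytes, Ptprc (log2 difference 1.01) and Coro1a (0.77) were higher over all treatments. With the mean log2 level of the 9 macrophage markers as a covariate, 7 of the 10 class II genes were called in untreated tumors (5.27% of genes were higher). Over all treatments 8 were called (15.4%). The leukocyte markers were not used as a covariate. T-cell markers did move: all 5 were higher in transplants over all treatments, and their sum ran from 26.5 to 64.6 CPM in untreated transplants against 6.4 to 31.9 CPM in untreated primary tumors. Among 8 dendritic cell markers only Itgax passed as higher (log2 difference 0.92), with 7 of the 8 positive and a median of 0.315. Among 5 B-cell markers 0 passed as higher and 1 as lower, with 4 of the 5 positive and a median of 0.347. The part of these cell types in the class II difference was not tested.

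Of the 10 genes, Ctss rose with radiation in both models. In primary tumors given isotype antibody Ctss ran from 268 through 322 to 542 CPM (lowest, median, highest) at 0 Gy and from 476 through 972 to 1599 CPM at 20 Gy. In transplants it was at 481, 554, 752 and 772 CPM at 0 Gy and at 1171, 1469, 1568 and 2029.8 CPM at 20 Gy. The transplant groups did not overlap for Ctss and H2-DMb1, 2 of the 10 genes, where this held for 9.03% of all tested genes, and with anti-PD-1 for Ctss alone, beside 5.63%. The primary groups overlapped for all 10 genes with either antibody, where 1.45% of all genes with isotype and 0.279% with anti-PD-1 did not overlap. Averaged over antibodies, Ctss rose by 1.22 on the log2 scale in primary tumors (SE 0.20, adjusted p = 6.2e-06 by edgeR) and by 1.25 in transplants (SE 0.28, adjusted p = 0.0021). The difference between these 2 changes was 0.03 (SE 0.33, adjusted p = 0.99).

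The classical chains, Cd74 and Ciita did not pass edgeR's test after radiation in either model when all 48 libraries were fitted. Over both antibodies 2 of 10 genes were called in primary tumors, Ctss and H2-DMb1, where 16.8% of all tested genes rose, and 1 of 10 in transplants, where 5.85% rose. H2-DMb1, a chain of the peptide exchanger DM, changed by a log2 of 0.90 in primary tumors (SE 0.30, adjusted p = 0.021 by edgeR), but by 0.46 (adjusted p = 0.29) in limma voom. Ciita changed by 0.91 (SE 0.41, adjusted p = 0.085), and passed by DESeq2 (log2 change 0.96, adjusted p = 0.046) and without untreated library 6, irradiated library 8 with isotype or library 5 or 6 with radiation and anti-PD-1 (1.03 to 1.08, adjusted p = 0.042 to 0.046 by edgeR). H2-Aa changed by 0.55 (SE 0.38, adjusted p = 0.28) and Cd74 by 0.44 (SE 0.36, adjusted p = 0.37). In transplants the same genes changed by 0.79, 0.63 and 0.57 on the log2 scale, with adjusted p-values of 0.50 to 0.60.

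These fitted values stand for means that a few tumors carry. Over the 16 primary tumors of each dose the median of H2-Aa was 558 CPM at 0 Gy and 459 CPM at 20 Gy, and its mean log2 CPM was 9.10 and 8.98, so that the median tumor and the fitted mean differ in direction. Ciita had medians of 34.8 and 38.5 CPM, H2-Oa of 1.49 and 0.921 CPM, and Ctss of 376 and 804 CPM. Only for Ctss did the middle of the irradiated primary tumors lie above the highest tumor at 0 Gy, which was at 624 CPM.

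The count in primary tumors depended on single libraries. Leaving out the irradiated library with isotype and the lowest H2-Aa of its group (library 8, 107.05 CPM) gave 5 called genes (18.4% of all genes rose), and leaving out library 5 or library 6 with radiation and anti-PD-1 (111.91 and 68.3 CPM) gave 5 and 4 (18.0% and 17.7%). Leaving out the highest of either group, library 5 with isotype (2163 CPM) or library 4 with anti-PD-1 (4008 CPM), gave 1 (15.6% and 14.9%), which was Ctss, and leaving out library 6 of the untreated tumors gave 4 (18.0%). Ctss was called each time.

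By antibody, radiation with isotype gave 2 calls in primary tumors, Ctss (log2 fold change 1.36, SE 0.28, adjusted p = 0.00047 by edgeR) and H2-DMb1 (1.25, SE 0.43, adjusted p = 0.037), where 9.19% of all genes rose. The count was 1 without any 1 of the untreated libraries 1, 2, 3, 5, 7 and 8 or the irradiated libraries 3, 5 and 6, and 4 without irradiated library 8 (10.7% of all genes rose). For the fits with a count of 1 the share of all genes is not given here. Radiation on top of anti-PD-1 gave only Ctss (1.08, SE 0.28, adjusted p = 0.0084; 7.92% of all genes rose). Whether the radiation change differed by antibody was tested directly, and 0 of 10 genes and 0.0% of all genes passed in either model (edgeR, with DESeq2 0 and limma voom 0). At an unadjusted p under 0.05 it was 0 of the 10 genes in both models, beside 6.04% of all genes in primary tumors and 1.3% in transplants. In transplants radiation gave 0 calls with either antibody (1.82% and 0.538% of all genes rose), with 1 gene, Ctss, at an unadjusted p under 0.05 each time (12.1% and 13.1% of all genes), limma voom at 0 and 0 and DESeq2 at 1 and 0.

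Macrophage markers rose with radiation. In primary tumors 8 of 9 rose over both antibodies and their sum had a median of 1999 CPM in untreated and 3059 CPM in irradiated tumors given isotype, and in transplants 5 of 9 rose with medians of 1938 and 3501 CPM. With the macrophage level as a covariate the picture for class II turned in primary tumors. Only Ctss was then higher (log2 change 0.39, adjusted p = 0.024 by edgeR; 8.66% of all genes rose), and 5 genes were lower, where 6.59% of all genes fell: Cd74 by a log2 change of -1.13, H2-Eb1 of -1.16, H2-Aa of -1.08, H2-Ab1 of -1.01 and H2-Oa of -1.39, with adjusted p-values of 0.0094 to 0.032. In transplants the covariate left 0 calls (edgeR), with Ctss at a log2 change of 0.29 (adjusted p = 0.47). A covariate that itself rises with radiation takes part of the radiation change with it.

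Anti-PD-1 changed none of the 10 genes by the test. In primary tumors at 0 Gy the median of H2-Aa was 354 CPM with isotype and 819 CPM with anti-PD-1, and that of Ciita 24.6 and 67.6 CPM, with ranges that overlapped (234 to 919 and 319 to 1472 CPM for H2-Aa). The fitted log2 changes were 0.81 for H2-Aa (SE 0.54) and 0.96 for Ciita (SE 0.58), all 10 genes had positive values and their median was 0.79, beside -0.03 over all genes. The T-cell marker sum had medians of 11.1 CPM with isotype and 28.4 CPM with anti-PD-1 there, and all 5 markers had positive changes with a median of 1.22, of which 0 passed (edgeR). Their part in the class II values was not tested. In all 4 comparisons of anti-PD-1 with isotype, by dose and model, 0 of 10 genes were called by edgeR, DESeq2 and limma voom, 0 had an unadjusted p under 0.05 (beside 3.66% and 10.1% of all genes at 0 and 20 Gy in primary tumors and 0.678% and 2.65% in transplants), and 0.0% of all genes were called by edgeR. At 20 Gy the median change over the 10 genes was 0.25 in primary tumors and 0.45 in transplants.

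Radiation with anti-PD-1 was also set against untreated tumors. In primary tumors 3 of 10 genes were called, where 11.4% of all genes rose: Ctss (log2 fold change 1.35, SE 0.28, adjusted p = 0.00061 by edgeR), H2-DMa (1.24, SE 0.43, adjusted p = 0.037) and Ciita (1.62, SE 0.59, adjusted p = 0.047). Ciita ran from 5.26 through 47.1 to 356 CPM in the treated and from 15.5 through 24.6 to 65.6 CPM in the untreated primary tumors, so the treated group lay on both sides of the untreated range. Its call was lost in limma voom (log2 change 0.54, adjusted p = 0.61) and without treated library 4 (0.90, adjusted p = 0.31). The count fell to 1, Ctss, without treated library 3 or 4 or any 1 of the untreated libraries 1, 3, 5, 7 and 8, and was 5 without treated library 5 or 6 (13.5% and 12.0% of all genes rose). The share of all genes is not given here for the fits with a count of 1. No gene of the 10 had all treated above all untreated primary tumors, as 0.347% of all genes had.

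In transplants only Ctss was called after the combination (log2 fold change 1.60, SE 0.39, adjusted p = 0.011 by edgeR), where 4.13% of all genes rose. The call was lost without untreated transplant library 1 or 4. Of the 10 genes, 5 had all 4 treated transplants above all 4 untreated ones (H2-Aa, H2-Ab1, H2-DMa, H2-DMb1 and Ctss), as had 8.5% of all tested genes. H2-Aa was at 1777, 1818, 3132 and 3756 CPM after treatment and at most at 1609 CPM in untreated transplants, with a fitted log2 change of 1.11 (SE 0.76). Neither the radiation nor the combination change differed between the models for any of the 10 genes (0 called by edgeR, DESeq2 and limma voom, where edgeR called 0.0259% and 0.0% of all genes, and 0 at an unadjusted p under 0.05, where 8.55% and 6.4% of all genes passed). For H2-Aa the difference of the radiation changes, transplant minus primary, was 0.08 with a standard error of 0.65, which leaves room for a difference in either direction.

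The spread between primary tumors widened after radiation. H2-Aa ran from 107.05 through 499.9 to 2163 CPM in the 8 with isotype and from 68.3 through 459 to 4008 CPM in the 8 with anti-PD-1, so that the highest was 20.2 and 58.7 times the lowest. Among untreated primary tumors the highest was 3.93 times the lowest. The SD of log2 CPM around the group means went from 0.71 at 0 Gy to 1.71 at 20 Gy for H2-Aa, from 0.79 to 1.85 for Ciita and from 0.37 to 0.79 for Ctss. That of Ptprc, carried by all leukocytes, went from 0.36 to 0.85, and that of the macrophage gene Adgre1 from 0.32 to 0.94. Over the 10 genes its median went from 0.68 to 1.58, while over all tested genes it went from 0.46 to 0.54, and the ratio of the 2 SDs was larger for H2-Ab1 than for 98.8% of all genes and for H2-Oa, the lowest of the 10, than for 92.0%. In transplants the SD was lower at 20 Gy for 9 of the 10 genes (0.64 at 0 Gy and 0.44 at 20 Gy for H2-Aa) and higher for H2-Oa (0.79 and 1.09). The median SD there was 0.63 and 0.37 over the 10 genes, which moved together, and 0.36 and 0.41 over all tested genes. No test was made of the spread.

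The genes moved together from tumor to tumor, so that the same libraries were at the ends. In irradiated primary tumors with isotype library 5 had the highest level of all 10 genes and library 8 the lowest of 9. With radiation and anti-PD-1 library 4 had the highest of 9, and libraries 6 and 5 the lowest of 6 and 4. Library 4 also had the highest macrophage sum (5823 CPM), T-cell sum (162 CPM) and skeletal muscle sum (76193 CPM) of its group, and library 5 the lowest macrophage sum (881 CPM) and T-cell sum (1.92 CPM). Library 6, with the lowest H2-Aa of all tumors, had a macrophage sum of 1874 CPM, within the range of untreated primary tumors, and a T-cell sum of 5.12 CPM, below the range of untreated primary tumors (6.4 to 31.9 CPM). The part of these cell types in the spread was not tested.

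Ciita and its targets were compared across tumors after subtraction of the group means. In the 32 primary tumors Pearson's r between Ciita and H2-Aa was 0.97 and Spearman's rho 0.94 (permutation test over 18 relations, p = 1e-05, the smallest that 100000 permutations can give, adjusted p = 1.6e-05 and 2e-05). The r with Cd74 was 0.97, with H2-DMa 0.95, with H2-DMb1 0.95, with H2-Oa 0.93 and with H2-DMb2 0.91, and all stayed between 0.91 and 0.96 without the 2 tumors farthest from the median of Ciita. Ctss had the lowest, with r = 0.76 and rho = 0.68, and 0.73 without those 2 tumors. Within the 16 primary tumors at 0 Gy the r between Ciita and Ctss was 0.36 (permutation p = 0.18).

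**Figure D3:**
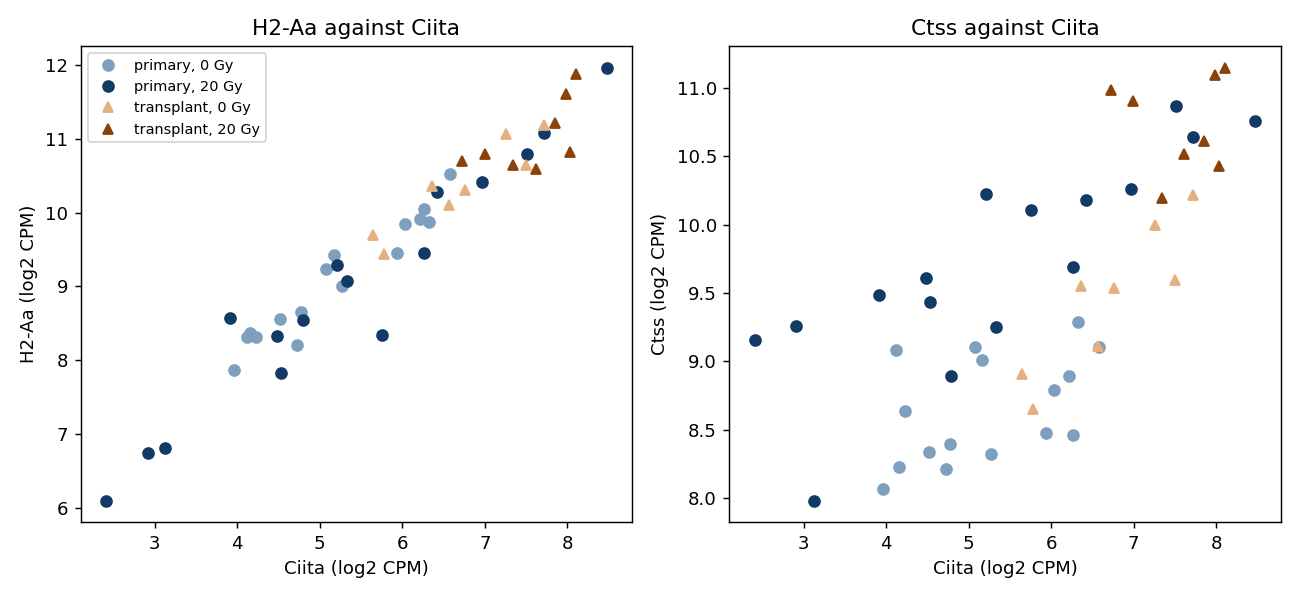
log2 CPM of H2-Aa (left) and Ctss (right) against Ciita in the 48 tumor libraries, by model and dose, before subtraction of group means. H2-Aa follows Ciita over the whole range in both models (r = 0.97 in primary tumors and 0.81 in transplants after centring), whereas the r between Ciita and Ctss was 0.76 and 0.57.

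In the 16 transplants, whose range was narrower, r was 0.92 for Cd74, 0.91 for H2-DMa, 0.81 for H2-Aa, 0.69 for H2-DMb1 and 0.57 for Ctss. All 9 had a permutation p under 0.05 after adjustment for r, and Ctss did not for rho (0.48, adjusted p = 0.061). Without the 2 tumors farthest from the median of Ciita, r was 0.69 for H2-Aa, 0.52 for H2-DMb1 and 0.25 for Ctss. Leaving them out narrows the range of Ciita, which can lower r for any gene, so the fall is not particular to Ctss. All these genes come from the same libraries and from whatever cells those hold.

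Ratios within a library do not depend on its depth. The counts of H2-Aa were 97.3% of those of H2-Ab1 in the median primary tumor and 91.2% in the median transplant, with SDs of only 0.10 on the log2 scale in each. This pair of chains thus kept its proportion over a 58.7-fold range of H2-Aa. H2-DMb2, in contrast, was a smaller share beside H2-DMb1 in transplants: its counts were 6.08% of those of H2-DMb1 in the median untreated transplant and 8.83% in the median untreated primary tumor. All 4 transplants lay below all 8 primary tumors, a log2 difference of -0.59 (exact permutation test, two-sided, p = 0.00404, adjusted over 24 ratio tests p = 0.0242), and the same held with radiation alone (-0.84) and with both treatments (-0.92, both with the same p, the smallest that 4 against 8 libraries reached here). With anti-PD-1 alone the difference was -0.54 (exact permutation p = 0.129). As described above, reads that fit both copies may be missing from this ratio.

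H2-Oa became a smaller share beside H2-DMa, the alpha chain of the exchanger that DO inhibits, in irradiated primary tumors. With isotype antibody its counts were 2.9% of those of H2-DMa in the median tumor at 0 Gy and 1.66% at 20 Gy, a log2 difference of -0.92 (exact permutation test, two-sided, p = 0.0028, adjusted p = 0.0242), and 6 of 8 irradiated tumors lay below all untreated ones. With anti-PD-1 the difference was -0.89 (exact permutation p = 0.0115, adjusted p = 0.0552), with 3 of 8 below. Between models the H2-Oa ratio did not pass under any treatment, and neither did H2-Aa over H2-Ab1 or Cd74 over H2-Aa in any of their 6 comparisons after adjustment. H2-Oa had 5 to 230 counts per tumor with a median of 63, the fewest of the 10 genes, so its single values carry counting error, and these 24 tests were chosen with the levels known.

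Outside the 10 genes, the likeness to the mean of H2-Aa, H2-Ab1, H2-Eb1 and Cd74 over the 48 tumors, after subtraction of group means, was highest for Plbd1 (r = 0.95 among 12835 genes with an average log2 CPM of at least 1). H2-Ob, the beta chain of DO, came second (0.94), followed by Arhgap15 (0.93), Ipcef1 (0.91), BC064078 (0.89), Cxcr3 (0.89), the chemokine receptor of activated T cells, Ramp1 (0.89), Rnase6 (0.89), Cd3g (0.88), a chain of the T-cell receptor complex, and Cyp27a1 (0.88). Each also had r of at least 0.88 in primary tumors and at least 0.70 in transplants. These values describe the 48 libraries and carry no test, and all genes share the libraries' cell content. Among the marker lists, the mean level of the dendritic cell markers had r = 0.89 with H2-Aa in primary tumors and 0.86 in transplants, that of the T-cell markers 0.89 and 0.77, that of the B-cell markers 0.69 and 0.70, and that of the macrophage markers 0.69 and 0.90. Ctss had 0.85 and 0.95 with the macrophage markers, 0.84 and 0.52 with the T-cell markers, and 0.68 and 0.58 with the dendritic cell markers.

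Other genes of the pathway also moved with radiation. Of 10 tested genes, 6 rose in irradiated primary tumors over both antibodies, beside the 16.8% of all genes, and 5 rose in transplants, beside 5.85%. They were the proteases Ctsb (log2 change 0.63 in primary tumors and 0.75 in transplants), Ctsd (0.59 and 0.63) and Lgmn (0.56 and 0.91), Sppl2a, which removes the last membrane stub of Cd74 (0.41 and 0.42), March1, the ligase that takes class II molecules off the surface (1.23 and 1.40), and, in primary tumors only by the test, the thiol reductase Ifi30 (0.59, adjusted p = 0.0026; 0.59 in transplants, adjusted p = 0.088 by edgeR). H2-Ob (-0.22 and 0.10) and H2-Eb2 (0.48 and 0.37) did not pass. Between models 3 of the 10 were higher in transplants over all treatments (March1 by a log2 of 0.97, Ctsl by 0.49 and Sppl2a by 0.32) and Ctsd was lower (-0.42).

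The general factors at the promoters had smaller fitted changes than Ciita. Of 7 genes for RFX, NF-Y and CREB, Rfx5 (log2 difference 0.34) and Nfyb (0.36) were higher and Rfxap (-0.37) and Nfya (-0.21) lower in transplants over all treatments, and Rfxank, Rfxap and Nfyc fell in irradiated primary tumors by 0.33, 0.26 and 0.24 on the log2 scale. In transplants 0 of 7 changed with radiation at an adjusted p under 0.05 (edgeR).

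Genes of the interferon gamma signal were compared as well. Ifng itself was higher in transplants over all treatments by a log2 of 2.37 (SE 0.40, adjusted p = 9.3e-06 by edgeR), with medians of 1.01 CPM in untreated transplants and 0.0688 CPM in untreated primary tumors. At the total counts of these libraries that primary level is only a few reads, so the fitted changes of Ifng carry counting error. Irf1 and Socs1 (0.87) were higher too, while Jak1 was lower (-0.16). In irradiated primary tumors Ifng (1.99, SE 0.51), Irf1 (1.25, SE 0.18), Socs1 (0.98) and Jak2 (0.53) rose, among others. In transplants Socs1 (0.80) and Jak2 (0.43) rose with radiation, and Ifng had a change of 0.65 (SE 0.67).

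Co-stimulators and the class II receptors Cd4 and Lag3 were also compared. In irradiated primary tumors 5 of 6 tested genes rose, beside the 16.8% of all genes, namely the co-stimulators Cd80 (log2 change 1.91), Cd40 (1.68), Cd86 (1.21) and Icosl (0.59) and the inhibitory class II receptor Lag3 (1.58). Cd4 had 0.64 (SE 0.32, adjusted p = 0.13 by edgeR). In transplants 4 of 6 rose, beside 5.85%, namely Cd40, Cd80, Cd86 and Icosl (1.48, 1.02, 1.01 and 1.04).

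The class II region of chromosome 17 (chr17:34092340-34344645, from H2-Oa to the H2-Ea pseudogene, GRCm38) holds 18 genes of the table, of which 17 were tested and 7 are among the 10 described here. Between H2-DMb1 and H2-Ob it also holds Psmb8, Psmb9, Tap1 and Tap2, which serve class I presentation by making and moving its peptides. In irradiated primary tumors these 4 rose by 1.01 to 1.37 on the log2 scale with adjusted p-values of 3.1e-06 to 0.00027, while H2-Ab1, H2-Aa and H2-Eb1, within the same region, changed by 0.50 to 0.61 and did not pass. Of the other class II genes described here in the region, H2-DMb1 rose (0.90, adjusted p = 0.021 by edgeR). H2-DMa (0.73), H2-DMb2 (0.63) and H2-Oa (-0.05) did not pass. In transplants against primary tumors both kinds were higher, the 4 class I genes by 0.74 to 1.08 and the 3 classical class II chains by 1.24 to 1.32. Brd2, a chromatin reader gene at the edge of the region, had a log2 difference of 0.14 (adjusted p = 0.11) for transplants against primary tumors and a change of 0.19 (adjusted p = 0.062) with radiation in primary tumors. Whether the class I and class II changes differ from each other was not tested.

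**Figure D4:**
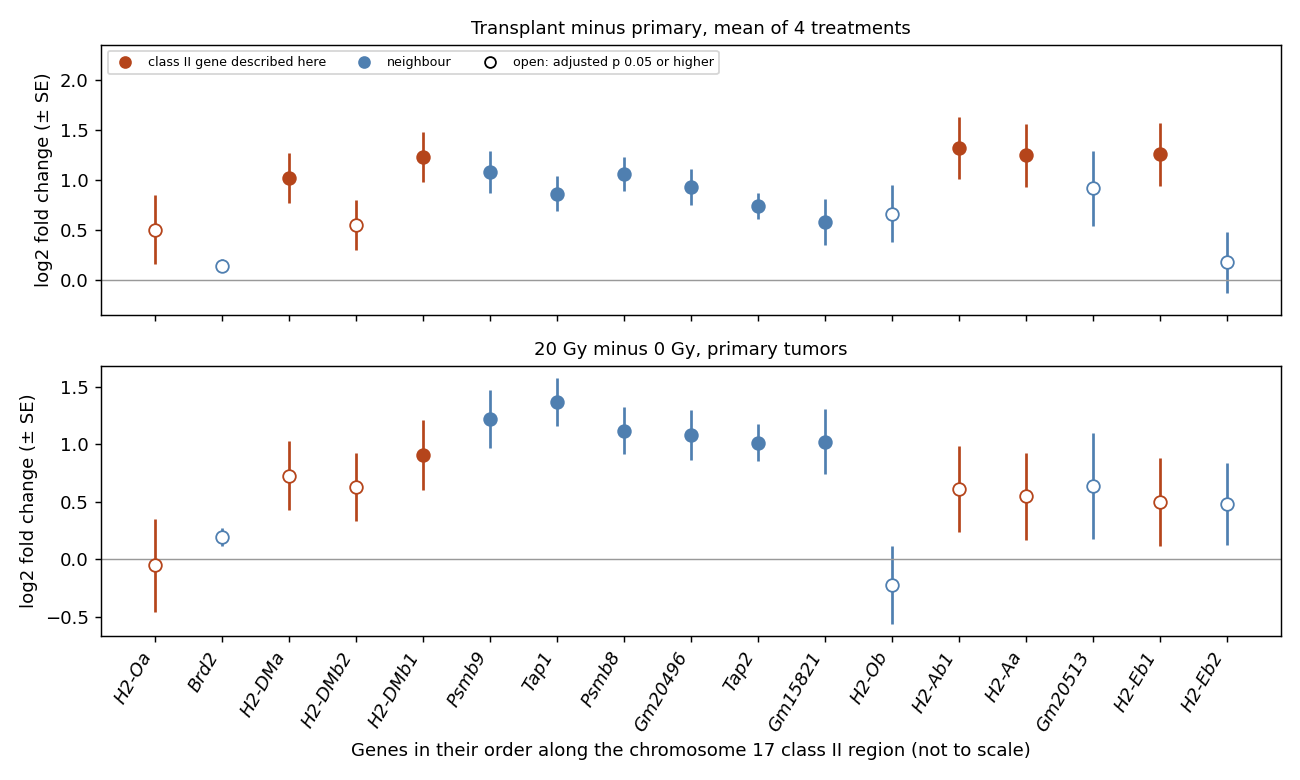
Fitted log2 fold changes with standard errors (edgeR) of the 17 tested genes of the class II region in their order on chromosome 17, for transplants against primary tumors (top) and 20 Gy against 0 Gy in primary tumors (bottom). The class I genes from Psmb9 to Tap2 and the class II gene H2-DMb1 are filled (adjusted p under 0.05) in both panels, and H2-Ab1, H2-Aa and H2-Eb1 only in the top panel.

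The 2 libraries of 402230 give single values, scaled here over all 50 libraries, with exact Poisson 95% intervals that cover counting error only. In the library labelled parental tumor H2-Ab1, Ciita, H2-DMb2, H2-Oa and Ctss had 0 counts, which allows up to 0.0682 CPM at 3 counts, and H2-Aa had 3 counts (0.0682 CPM, interval 0.0141 to 0.199). H2-DMa had the highest level of the 10 there, 1.02 CPM from 45 counts (interval 0.746 to 1.37), in a gene that overlaps Brd2 on the other strand. In the library labelled cell line H2-Aa was at 419.9 CPM (interval 414 to 426), Cd74 at 574 CPM, Ciita at 17.3 CPM (16.2 to 18.6) and Ctss at 287 CPM. These lay inside the ranges of the 8 untreated primary tumors (224 to 939 CPM for H2-Aa and 14.9 to 67.0 CPM for Ciita) and below those of the 4 untreated transplants (827 to 1593 and 49.9 to 179 CPM). H2-DMa (24.2 CPM), H2-DMb2 (1.73 CPM) and H2-Oa (0.454 CPM, interval 0.281 to 0.693) lay below the lowest untreated primary tumor (25.8, 2.15 and 0.487 CPM).

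B2m, the light chain of class I, was at 926 CPM in the library labelled parental tumor and at 827 CPM in the one labelled cell line. The sum of the 9 macrophage markers was 10.1 CPM in the first, with Adgre1 at 0 counts, and 1121 CPM in the second. The 5 T-cell markers summed to 0.205 CPM, with 4 of 5 at 0 counts, and to 3.13 CPM. With no replicate, no test was made.

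**Figure D5:**
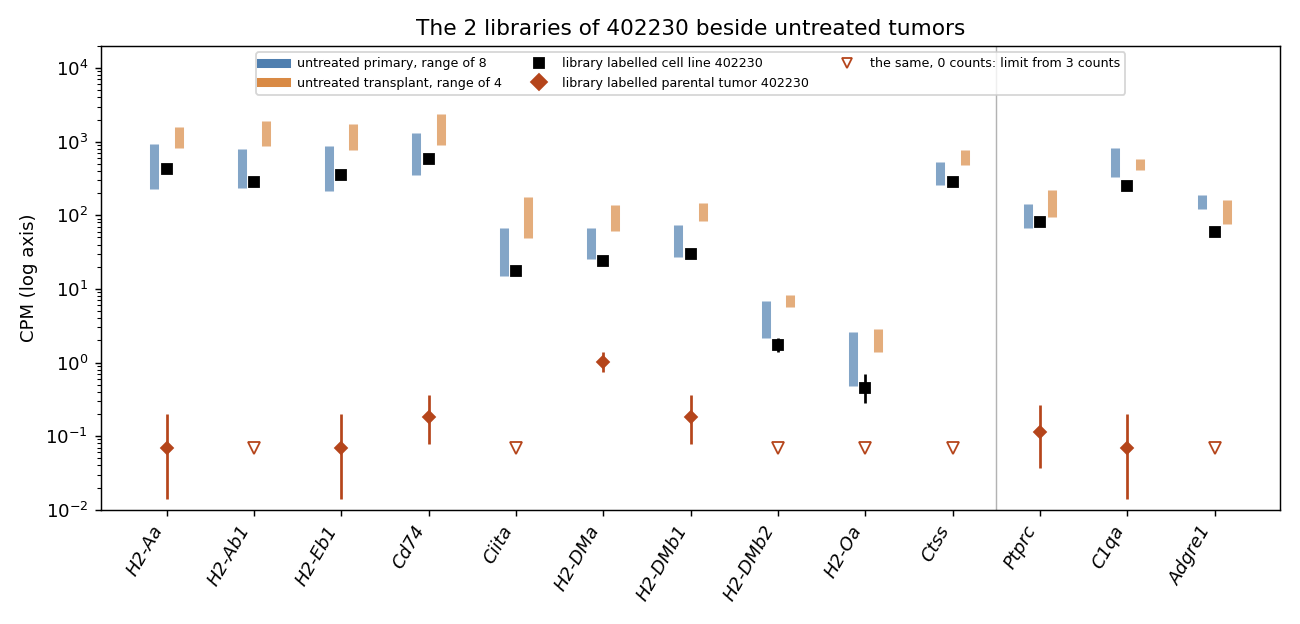
CPM on a log axis, scaled over 50 libraries, of the 10 class II genes and 3 leukocyte markers in the library labelled parental tumor (diamonds, or open triangles at the limit that 0 counts allow) and in the library labelled cell line (squares), with exact Poisson 95% intervals. Bars are the ranges of untreated primary tumors (blue) and untreated transplants (orange). The squares lie near the tumor ranges, and the diamonds and triangles near 0.1 CPM except H2-DMa at 1.02 CPM.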

How the data were processed

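Bulk RNA sequencing of 48 sarcomas and 2 libraries of line 402230 was analysed. Libraries were stranded and mRNA-selected. The authors used Trimmomatic 0.36 for trimming and STAR for alignment to mm10, with counting per GENCODE M17 gene. The deposited values were raw read counts, 1 table, not normalized or pooled. The strand setting of the counting is not given in the sources used here, so counts of Ciita (Dexi), H2-DMa (Brd2), H2-Eb1 (Gm20513) and H2-Oa (BC051537), each overlapped by the gene in brackets on the other strand, are uncertain, as are those of the near-identical H2-DMb1 and H2-DMb2. Symbols and positions came from GENCODE M21, which matched 37408 of 37469 identifiers.

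Groups came from the labels. Genes were filtered with filterByExpr, libraries were scaled with TMM, and 1 quasi-likelihood model with a mean per group was fitted to the 48 tumors in edgeR 4.0.16 (R 4.3.3), with Benjamini-Hochberg adjustment over 19327 genes and a threshold of 0.05. The script was tested on simulated data. Alternatives were DESeq2 1.42.0 (its size factors and its test), limma 3.58.1 voom, no low-count filter, a fit of the groups compared only, the muscle or the macrophage list as a covariate, the library labelled parental tumor added to untreated primary tumors, and each library left out in turn. log2 CPM used a prior count of 2. Ratios used raw counts plus 0.5, and permutation tests used scipy 1.17.1. Within groups, 136 pairs of libraries were compared (chi-square over degrees of freedom at least 93.6), and none looked like 1 library deposited again.

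The 10 genes, the gene lists, the tests and the rule for genes named in the text were chosen with earlier results of these data known. The rule named the 10 genes, the list genes (1 is not reported here), Trp53, the 10 genes most like the classical chains and Cd74, and the genes of the class II region. The ratio tests and the split of the Ciita relations by dose were added after the values were seen.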

Additional observations from a re-analysis of the deposited data

Results flagged for a closer look

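Of 80 sets of values (10 genes in each of 8 groups), 4 had a library farther from the rest of its group than Dixon's 95% limit, and chance flags about 1 in 20. In irradiated transplants with isotype antibody library 3 had H2-Ab1 at 11.34 log2 CPM (2588 CPM beside a group median of 1832) and Cd74 at 11.69 (3304 beside 2224), and library 1 had H2-Oa at -1.40 log2 CPM (0.331 beside 2.13 CPM). In irradiated transplants with anti-PD-1 library 1 had Ciita at 7.00 log2 CPM (127.57 beside a median of 257 CPM). No gene of the 10 was flagged in a primary group.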

How the results depend on the processing

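No paired analysis was made, because each tumor library carries a number of its own in the labels and the paper describes no sample as measured repeatedly. Over all treatments the count of genes higher in transplants was 8 in each alternative except limma voom, with 9 (19.1%). Percentages in brackets are the share of all genes called higher in the same fit. DESeq2's test gave 1 gene in untreated tumors between models (5.06%), 4 for radiation over both antibodies in primary tumors (19.6%) and 1 for radiation with isotype in transplants (2.78%); limma voom gave 7 between models after both treatments (5.3%) and 1 for each of radiation with isotype, radiation over both antibodies and the combination in primary tumors (8.28%, 12.7%, 7.59%). The fit of the compared groups alone gave 8, 1 and 0 between models (untreated, anti-PD-1, both treatments; 3.98%, 3.98%, 0.0113%), 1 and 0 for radiation with isotype and with anti-PD-1 and 1 for the combination in primary tumors (8.45%, 3.72%, 6.09%), and 1, 2 and 2 in transplants for radiation with isotype, the combination and radiation over both antibodies (5.12%, 5.62%, 9.55%). The muscle covariate gave 0 between models after both treatments (3.84%) and 1 for radiation with isotype, the combination and radiation over both antibodies in primary tumors and radiation with isotype in transplants (9.14%, 9.95%, 14.5%, 2.41%). Without the low-count filter the counts were 0 between models after both treatments and 1 for radiation with isotype and the combination in primary tumors (0.936%, 4.5%, 5.15%), and with DESeq2's size factors 0 between models after both treatments (2.77%). The library labelled parental tumor, added to untreated primary tumors, gave 0 between models after both treatments, for radiation on anti-PD-1 in primary tumors and for the combination and radiation over both antibodies in transplants (1.17%, 5.92%, 2.01%, 4.16%).

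The macrophage covariate gave 7, 1 and 2 genes between models (untreated, anti-PD-1 alone, radiation alone; 5.27%, 3.76%, 3.92%), and 0, 0, 1 and 1 higher in primary tumors for radiation with isotype, on anti-PD-1, the combination and radiation over both antibodies (4.94%, 4.02%, 5.89%, 8.66%), with 3 and 5 lower on anti-PD-1 and over both (2.09% and 6.59% of all genes lower); in transplants it gave 0 for the combination and for radiation over both antibodies (0.0207%, 1.21%). Among the values that changed sign with it, over both antibodies in primary tumors, were H2-Aa -1.08, H2-Ab1 -1.01, H2-Eb1 -1.16, Cd74 -1.13 and H2-DMb1 -0.39. On anti-PD-1 they included H2-Aa -1.32, H2-Eb1 -1.44 and Cd74 -1.30. With isotype they included H2-DMb1 -0.086, and after the combination Ciita -0.34 and H2-DMa -0.29. This list is not complete. Over all alternatives, the lowest values over both antibodies in primary tumors were also below 0 for Ciita (-0.77), H2-DMa (-0.62) and H2-DMb2 (-0.48). In transplants over both antibodies they were below 0 for H2-Aa (-0.94), Ciita (-0.70) and Cd74 (-0.93), among others. The cause was not tested. Leaving out 1 library at a time gave 0 to 1 gene between untreated models, 0 to 1 with anti-PD-1, 0 to 8 with both treatments, 1 to 4 for radiation with isotype, 1 to 5 for the combination and 1 to 5 for radiation over both antibodies in primary tumors, and 0 to 1 for the combination in transplants. Scaling by totals alone moved the library labelled cell line to 472 (H2-Aa), 314 (H2-Ab1), 391 (H2-Eb1), 644 (Cd74), 19.5 (Ciita), 27.1 (H2-DMa), 33.8 (H2-DMb1) and 323 CPM (Ctss). The r of Ciita with Ctss was 0.36 in primary tumors at 0 Gy. Groups of 4 transplants limit every comparison within that model.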

Other observations

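Of 8 dendritic cell markers, 3 rose with radiation in primary tumors over both antibodies and 1 in transplants, 5 had positive changes in each, and the median log2 change was 0.11 and 0.17. Itgax, a dendritic and macrophage integrin, rose with radiation by 1.76 on the log2 scale in primary tumors (SE 0.21) and 1.72 in transplants (SE 0.30), while the cross-presenting dendritic cell markers Xcr1 (-0.12 and 1.01) and Clec9a (0.03 and 0.57) did not pass in either model by edgeR. The Fc receptor gene Fcgr1 rose by 1.49 and 1.55, and the dendritic homing receptor Ccr7 by 0.93 in primary tumors (adjusted p = 0.019 by edgeR) with 0.28 in transplants, and Clec10a by 1.11 in primary tumors (adjusted p = 0.042 by edgeR). Flt3 (0.19 and 0.06), Cd209a (-0.55 and -0.96) and Zbtb46 (-0.06 and -0.08) did not pass. Skeletal muscle markers, from the tissue around the tumor, rose by the test in irradiated primary tumors (8 of 9), but their summed level had medians of 1662 CPM at 0 Gy and 1341 CPM at 20 Gy with isotype and of 1316 and 1838 CPM with anti-PD-1. Among irradiated tumors it ran from 15.0 to 76193 CPM, and the next highest were at 44754 and 24570 CPM.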
